A study of Mus musculus with 77 samples.

Results

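Kinesin motor genes were followed in RNA from the neonatal mouse testis, in germ cells, Sertoli cells and the whole organ. The genes are those whose symbol is Kif followed by a number and at most 1 letter from a to c. The rule found 37 of the 19938 genes measured, and no expression value entered it. By their known work they were placed in 4 groups: 11 genes of the mitotic spindle and cytokinesis, 12 of cargo transport, 9 of the cilium and flagellum, and 5 others (Kif2a, Kif2b, Kif12, Kif26a and Kif26b). These roles were set with earlier results of these data known. Kif2a and Kif2b, paralogues of Kif2c that also act at the spindle, were kept with the others. Statements on the 11 spindle kinesins therefore leave them out. All 37 were tested, since no filter on low values was applied. Their mean log2 intensity ran from 6.89 for Kif2b to 11.65 for Kif5b, against a median of 8.54 over all genes. Kinesins named by other rules, such as Cenpe, are not members.

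Kinesins are motor proteins that use ATP to move along microtubules or to take them apart at their ends. Spindle kinesins push the spindle poles apart, align chromosomes and build the midzone where a dividing cell is cleaved, and their RNA is made mainly in cycling cells before mitosis. Transport kinesins carry vesicles and organelles, and others build or move cilia and the sperm flagellum. In the neonatal testis both spermatogonia and Sertoli cells divide, and Sertoli cells later leave the cell cycle.

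The arrays compared 3 mouse lines with a RiboTag allele, in which Cre adds an epitope tag to a ribosomal protein so that ribosome-bound RNA can be immunoprecipitated (IP) from the cells that made Cre. Stra8-Cre:RiboTag mice (FVB/N; 16 IP arrays and 23 of total testis RNA) tag germ cells with the Stra8 promoter. Ngn3-Cre:RiboTag mice (C57BL/6; 4 IP and 4 total) also tag germ cells, and Amh-Cre:RiboTag mice (FVB/N; 16 IP and 14 total) tag Sertoli cells with the Amh promoter. All animals received BDAD, an inhibitor of retinoic acid synthesis, on 9 days in a row. They were then killed, which is time 0, or injected with retinoic acid and taken at 4h, 12h, 24h, 48h, 4d, 6d or 8d (Ngn3 at 0 and 4h only; for Amh total RNA, 4h is not analysed here). No array came from uninjected animals of the later ages, so retinoic acid, age and the end of BDAD cannot be told apart. Of the 35 groups 31 held 2 arrays; Stra8 total RNA had 3 at 4h and 4 at each of 0, 24h and 48h. Whether replicates are separate animals is not in the labels, so p-values reflect only how far these samples spread, which may be technical.

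IP RNA carried the markers of the labelled cells. The 7 germ cell markers had a mean log2 intensity of 11.82 to 12.35 in Stra8 IP, 12.23 to 12.41 in Ngn3 IP and 7.93 to 9.56 in Amh IP, and none of them was at 0. The 9 measured Sertoli cell markers of 10 listed ran from 12.46 to 12.68 in Amh IP and from 8.81 to 11 in Stra8 IP. The highest of those Stra8 IP values belonged to 1 array, replicate 1 labelled 4d; the other 15 lay at 10.33 or below. Across genes, replicate arrays had a Pearson r of 0.958 to 0.999 (genes are not independent replicates).

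Some arrays went against their labelled times. Cyp26a1 and Rarb, which retinoic acid induces within hours, were raised in Stra8 IP labelled 4h (Cyp26a1 at 623 and 720 intensity units, against 89 and 90 at time 0). In Amh IP labelled 4h, Cyp26a1 was at 101 and 110, near its time 0 values of 92 and 71. In the Amh arrays labelled 4d it was at 310 and 290 in IP RNA and at 420 and 431 in total RNA, but it also varied late, with 104 and 360 in Amh IP at 6d and 299 and 977 at 8d. Among the Amh arrays Rarb was highest in those labelled 4d, at 382 and 378 in Amh IP and at 470 and 451 in Amh total RNA. In Amh IP it was at 134 and 130 at time 0, 145 and 143 at labelled 4h and 122 and 126 at 8d. It was also raised at 12h, at 278 and 208 in Amh IP and 321 and 239 in Amh total RNA. Of the Stra8 total arrays labelled 4h, replicate 1 had Rarb at 368 and replicates 2 and 3 had it at 126 and 127. Labels were kept as given, and the kinesin results were computed again leaving these Amh arrays out, and again leaving out Stra8 total RNA labelled 4h.

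All values are RMA intensities, and differences are on the log2 scale with the standard error (SE) of a limma fit over all genes. A gene was called, and is said to be higher or lower, when its Benjamini-Hochberg adjusted p over all genes was under 0.05 and the difference at least 2-fold. Bulk RNA cannot tell fewer cells of a type from less RNA per cell, which touches every comparison below.

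The first comparison asked which kinesins differ between germ cells and Sertoli cells. All 11 spindle kinesins were higher in Stra8 IP than in Amh IP RNA, while Kif5b, Kif1a and Kif21a, placed in the cargo transport group, were lower. Over the 8 labelled times 17 kinesins were higher and 5 lower, when 7.54% of all genes were higher and 9.26% lower. The spindle group had a median difference of 2.30, and the median over all genes was -0.02. Kif2c, which takes microtubules apart at kinetochores, ran from 2169 to 3938 in Stra8 IP (median 2817) and from 214 to 824 in Amh IP (median 353). The arrays of the 2 lines did not overlap, and the difference was 2.87 ± 0.07, or 7.33-fold (limma adjusted p = 2.52e-36, 16 arrays in each line). Kif11, the motor that separates spindle poles, ran from 3304 to 6093 (median 3946) in Stra8 IP and from 309 to 1833 (median 702) in Amh IP. Its arrays did not overlap either, at 2.43 ± 0.07 (limma adjusted p = 1.68e-35).

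**Figure D1:**
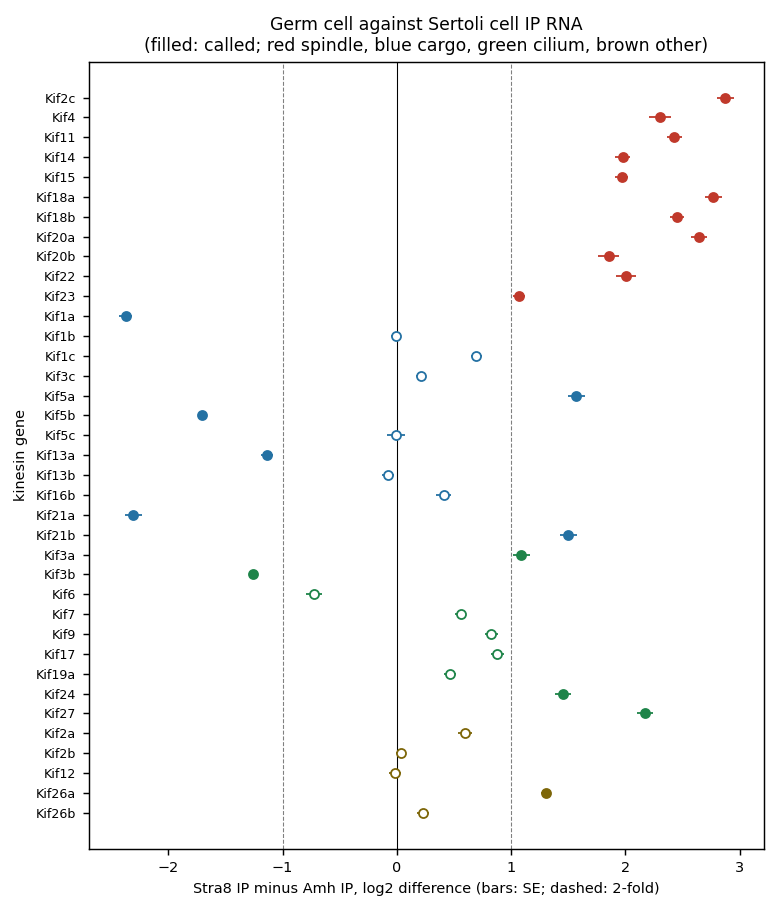
Log2 difference between Stra8 IP and Amh IP RNA for each of the 37 kinesin genes, averaged over the 8 labelled times; points are the fitted differences, bars the SE, filled points the called genes and dashed lines 2-fold. All 11 spindle genes lie beyond 2-fold on the right (Kif23 only without median centring), and Kif1a, Kif21a, Kif5b, Kif3b and Kif13a lie beyond 2-fold on the left.

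The other spindle kinesins followed in order of size. Kif18a, which damps chromosome movements at metaphase, differed by 2.77, Kif20a, a motor of the cleavage furrow, by 2.64, and Kif18b, which trims astral microtubules, by 2.46. Kif4, a chromosome-bound motor that also limits the spindle midzone, differed by 2.30, Kif22, which pushes chromosomes away from the poles, by 2.01, Kif14, needed for the last step of cytokinesis, by 1.98, Kif15, which helps Kif11 keep the spindle bipolar, by 1.97, and Kif20b by 1.85. The smallest difference in the group was that of Kif23, the motor of the centralspindlin complex, at 1.07 ± 0.05 (limma adjusted p = 3.59e-24). Kif23 ran from 1181 to 2040 in Amh IP and from 2380 to 5034 in Stra8 IP. With each array centred on its median its difference fell short of 2-fold (0.97). Kif14 has a second, dim probe set (mean log2 5.46) with a difference of -0.04, so its calls rest on the brighter one; with the mean of both it was called in no comparison (0.97 here).

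The sequences just upstream of 4 spindle kinesins are given as a description, and their part in the differences was not tested. Each line holds the 100 bases before the start of transcription (RefSeq, GRCm38.p6, 5′ to 3′ on the + strand, which is the strand of these genes). Capitals mark TTTGAA, the core of the cell cycle homology element found near the start of many G2 and mitosis genes, and CCAAT, the box bound by NF-Y, on either strand (read TTCAAA and ATTGG on the other). The motifs do not overlap each other. The windows are chr19:37376282-37376381 for Kif11, chr9:122950981-122951080 for Kif15, chrX:100625965-100626064 for Kif4 and chr2:109280638-109280737 for Kif18a.
Kif11: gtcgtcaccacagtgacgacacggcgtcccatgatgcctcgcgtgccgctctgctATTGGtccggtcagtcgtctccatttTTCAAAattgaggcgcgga
Kif15: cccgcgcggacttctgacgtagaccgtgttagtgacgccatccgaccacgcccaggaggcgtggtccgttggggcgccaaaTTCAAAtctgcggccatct
Kif4: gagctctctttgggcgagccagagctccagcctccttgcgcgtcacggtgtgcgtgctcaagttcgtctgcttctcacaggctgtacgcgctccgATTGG
Kif18a: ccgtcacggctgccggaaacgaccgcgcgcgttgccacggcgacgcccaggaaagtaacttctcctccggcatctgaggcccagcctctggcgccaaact

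Kif11 and Kif15 carry the first motif 19 bases before the start, Kif11 has a CCAAT box 45 bases before it, Kif4 has one 5 bases before it, and the Kif18a stretch holds neither. RefSeq promoters were used for 31 of the 37 members, of which 10 are spindle kinesins. Members on chromosome 18 were left out of this search, so Kif20a is the missing spindle kinesin, and Kif5b is missing too. Within 25 bases to either side of the start, TTTGAA was found in 7 of those 10 (Kif4, Kif11, Kif15, Kif18b, Kif20b, Kif22 and Kif23). Among the 21 other kinesins, which include Kif2a and Kif2b, it was found in 1 (Kif26b). Of 32851 promoters in the table, 2.46% had it there. That window was chosen after the positions had been seen; over the whole 300 bases the motif was in 9 of 10 spindle kinesins, 3 of 21 others and 17.9% of all promoters. In the 100 bases before the start, the stretch printed here, it was in 3 of 10 spindle kinesins, 3 of 21 others and 5.77% of all promoters. CCAAT was in 6 of 10 spindle kinesins, 7 of 21 others and 18.9% of all promoters over those 100 bases. Over 300 bases it was in 6 of 10, 8 of 21 and 37.4%, and within 25 bases of the start in 2 of 10, 1 of 21 and 6.52%. A match of letters is a description and shows no binding.

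Transport kinesins split between the cell types. Kif5b, the ubiquitous heavy chain of conventional kinesin, ran from 5168 to 6187 in Amh IP (median 5600) and from 1326 to 2830 in Stra8 IP (median 1595), and the arrays did not overlap. Its difference was -1.70 ± 0.04 (limma adjusted p = 2.82e-38). Its paralogue Kif5a, best known from neurons, went the other way, with 402 to 1135 in Stra8 IP, 199 to 314 in Amh IP and a difference of 1.57 ± 0.07 (limma adjusted p = 8.83e-26). The third heavy chain gene, Kif5c, overlapped between the lines (463 to 1067 in Stra8 IP, 438 to 1490 in Amh IP) and differed by -0.01 ± 0.08 (limma adjusted p = 0.917). The 3 heavy chain genes thus had 3 different patterns.

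Kif1a, a carrier of dense-core and synaptic vesicle precursors in neurons, was the kinesin lowest in germ cells relative to Sertoli cells, at -2.37 ± 0.06 (limma adjusted p = 6.92e-38). It ran from 1703 to 2666 in Amh IP and from 291 to 845 in Stra8 IP. Kif21a, a motor that restrains microtubule growth at the cell cortex, differed by -2.31 ± 0.08, while its paralogue Kif21b was higher in germ cells by 1.502 ± 0.07 (limma adjusted p = 5.88e-25). Kif13a, which carries endosomal cargo, was lower at -1.13. The other 6 transport kinesins, Kif5c among them, lay between -0.08 and 0.69 and were not called.

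Among cilium and flagellum kinesins, the partners of heterotrimeric kinesin-2 diverged. Kif3a was higher in Stra8 IP (967 to 1608, against 475 to 743 in Amh IP; 1.09 ± 0.07, limma adjusted p = 6.96e-19) and Kif3b lower (503 to 789, against 1242 to 1591; -1.26 ± 0.04, limma adjusted p = 1.31e-33). Neither gene's arrays overlapped between the lines. With each array centred on its median, Kif3a fell just under 2-fold (0.99). Kif27, a kinesin of motile cilia, was higher by 2.18, and Kif24, which restrains cilium formation, by 1.45. Kif26a, a kinesin without motor activity, was the called gene of the remaining group, at 1.31 ± 0.05. The cilium and flagellum kinesins not called, Kif6, Kif7, Kif9, Kif17 and Kif19a, lay between -0.72 and 0.88. The 4 others not called, Kif2a, Kif2b, Kif12 and Kif26b, lay between -0.01 and 0.60.

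Signals that did not overlap between the 16 Stra8 IP and 16 Amh IP arrays were found for 19 kinesins higher and 5 lower, against 10.7% and 10.2% of all genes. Against total RNA of the same line the counts were 9 higher (5.91%) and 0 lower (3.86%) in Stra8 IP, 4 (5.69%) and 3 (4.65%) in Amh IP, and 27 (31.9%) and 5 (23.6%) in the 4 Ngn3 IP arrays. In total RNA of the Stra8 and Amh lines, where all testis cells contribute, limma called 0 of 37 kinesins and 0.0301% of all genes. At an unadjusted p under 0.05, 14 kinesins differed, 13 of them lower in Stra8, and none by more than 0.37. Without the 2-fold minimum 4 were called. Kif11 differed by -0.21 ± 0.07, Kif20a by -0.15 and Kif5c by -0.15.

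**Figure D2:**
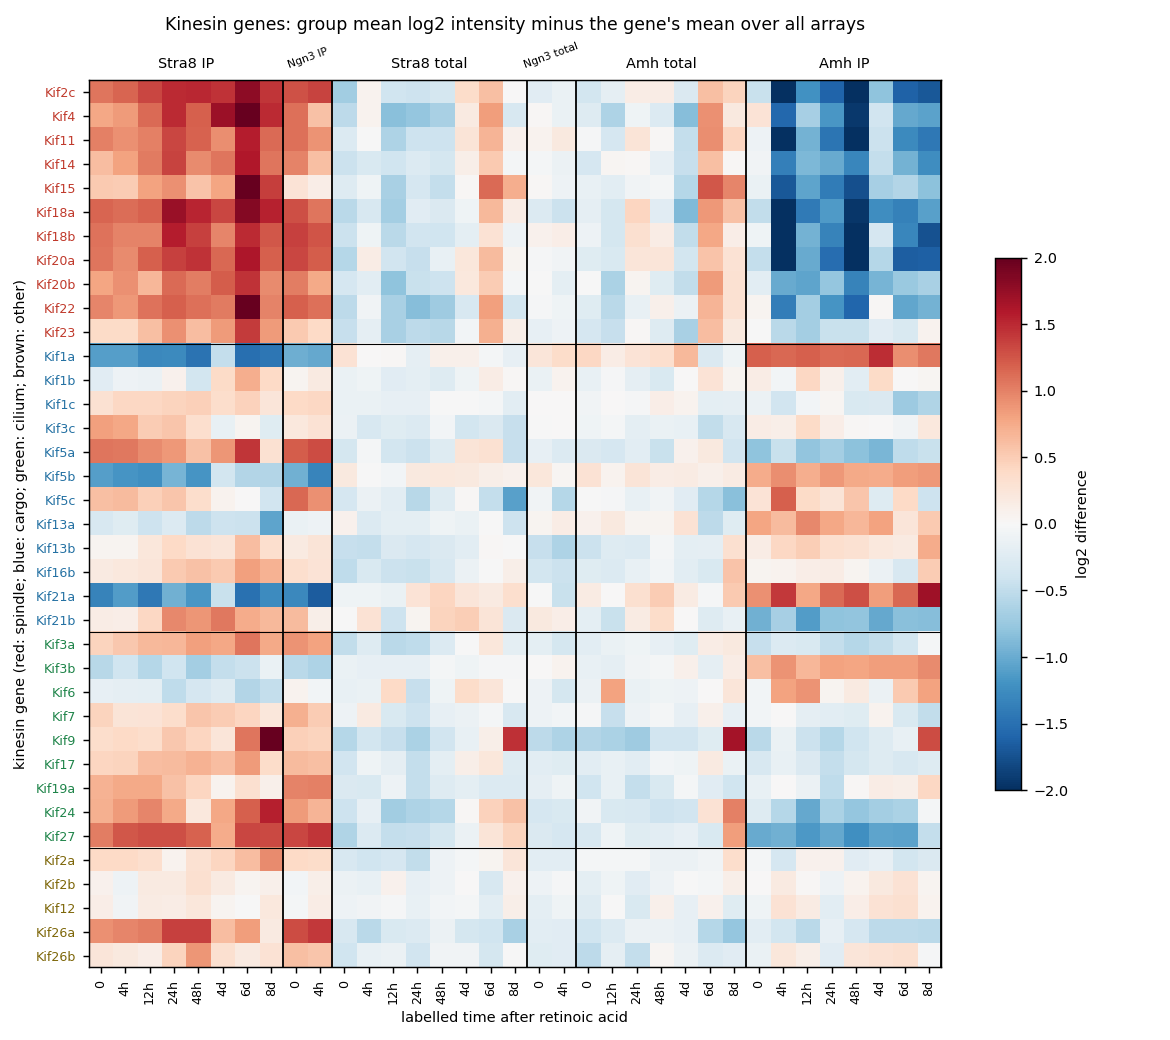
Group mean log2 intensity of each of the 37 kinesin genes (rows, ordered by role) minus the gene's own mean over all 77 arrays, for the 35 groups (columns, by line, fraction and labelled time). The spindle rows at the top are higher in Stra8 IP than in Amh IP, where 9 of the 11 have their lowest values in the groups labelled 4h and 48h (Kif20b is lowest at 48h and 12h, Kif23 at 12h), while Kif1a, Kif5b and Kif21a are higher in Amh IP.

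IP RNA was next set against total RNA of the same line. IP RNA is ribosome-bound and total RNA is not selected, so cell type and ribosome binding cannot be told apart here. In Stra8 IP 13 kinesins were higher (3.84% of all genes) and 3 lower (5.37%). Spindle kinesins made up 9 of the 13, led by Kif4 (1.61 ± 0.09, limma adjusted p = 1.75e-22), Kif18a (1.60), Kif2c (1.51), Kif22 (1.497) and Kif18b (1.45), with Kif20a at 1.31, Kif11 at 1.23 and Kif14 and Kif20b at 1.21. The other 4 were Kif27 (1.38), Kif26a (1.28), Kif5a (1.06) and Kif24 (1.05). Kif5b (-1.01), Kif1a (-1.22) and Kif21a (-1.30) were lower, the genes that were high in Sertoli cells. Kif5b lay at the edge of the call, with -0.98 after median centring and -0.99 when Stra8 total RNA labelled 4h was left out. Without the 3 arrays of narrowest signal range, Kif24 (0.98) and Kif5a (0.99) fell under 2-fold. Kif5c differed by 0.67 ± 0.07, under the 2-fold minimum, and the 21 kinesins not called ran from -0.36 to 0.97.

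The Ngn3 line gave a second set of germ cell arrays, from another strain. There too 13 kinesins were higher (6.18% of all genes) and 3 lower (6.75%), from 4 IP and 4 total arrays. Kif5b (-1.27), Kif1a (-1.30) and Kif21a (-1.25) were again the 3 lower genes. Spindle genes gave 5 of the 13: Kif18a (1.53 ± 0.15, limma adjusted p = 1.37e-12), Kif2c (1.49), Kif20a (1.32), Kif18b (1.21) and Kif22 (1.20). Kif11 stood at 0.87 ± 0.13, under 2-fold. Cilium and flagellum kinesins gave 5 more, Kif27 (1.70), Kif19a (1.14), Kif3a (1.12), Kif24 (1.09) and Kif9 (1.03), and Kif26a stood at 1.58. Kif9 fell short of 2-fold after quantile normalization (0.965). The last 2 were the neuronal-type heavy chains Kif5a (1.48) and Kif5c. Kif5c was at 1533, 1353, 1179 and 1265 in Ngn3 IP and at 700, 550, 421 and 459 in Ngn3 total RNA, a difference of 1.34 ± 0.16 (limma adjusted p = 2.24e-10). Whether its enrichment differed between Ngn3 and Stra8 IP was not tested, and strain and Cre line cannot be told apart there.

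In Sertoli cells the direction turned. In Amh IP 6 kinesins were lower than in total RNA (3.94% of all genes), all of them spindle genes: Kif2c (-1.46 ± 0.08, limma adjusted p = 7.43e-22), Kif20a (-1.35), Kif11 (-1.27), Kif18a (-1.27), Kif18b (-1.18) and Kif15 (-1.08). Limma called 0 kinesins higher (1.10% of all genes), although 15 were higher at an unadjusted p under 0.05, the largest by 0.96. Those 15 also had an adjusted p under 0.05 and missed only the 2-fold minimum. Kif15 fell short of 2-fold when arrays were centred on their medians (-0.94) or quantile normalized (-0.97); median centring moved the median of all genes by 0.14 in this comparison. Kif5c differed by 0.44 ± 0.08.

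The mean over times hides the course of the spindle kinesins in Sertoli cells, which the plots of single arrays show. At time 0 Kif11 was at 1833 and 1634 in Amh IP, and at 1895 and 1770 in Amh total RNA, so the fractions overlapped. In Amh IP it was at 978 and 944 at 12h, 654 and 695 at 24h, 309 and 387 at 48h, 643 and 905 at 6d, and 709 and 671 at 8d. The arrays labelled 4h had 408 and 371, and those labelled 4d had 1317 and 1429. Every later array was thus below both time 0 arrays, those labelled 4d by the least. In Amh total RNA Kif11 stayed between 1265 and 2281 up to 4d and reached 3477 and 3562 at 6d, when IP RNA was at 643 and 905.

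**Figure D3:**
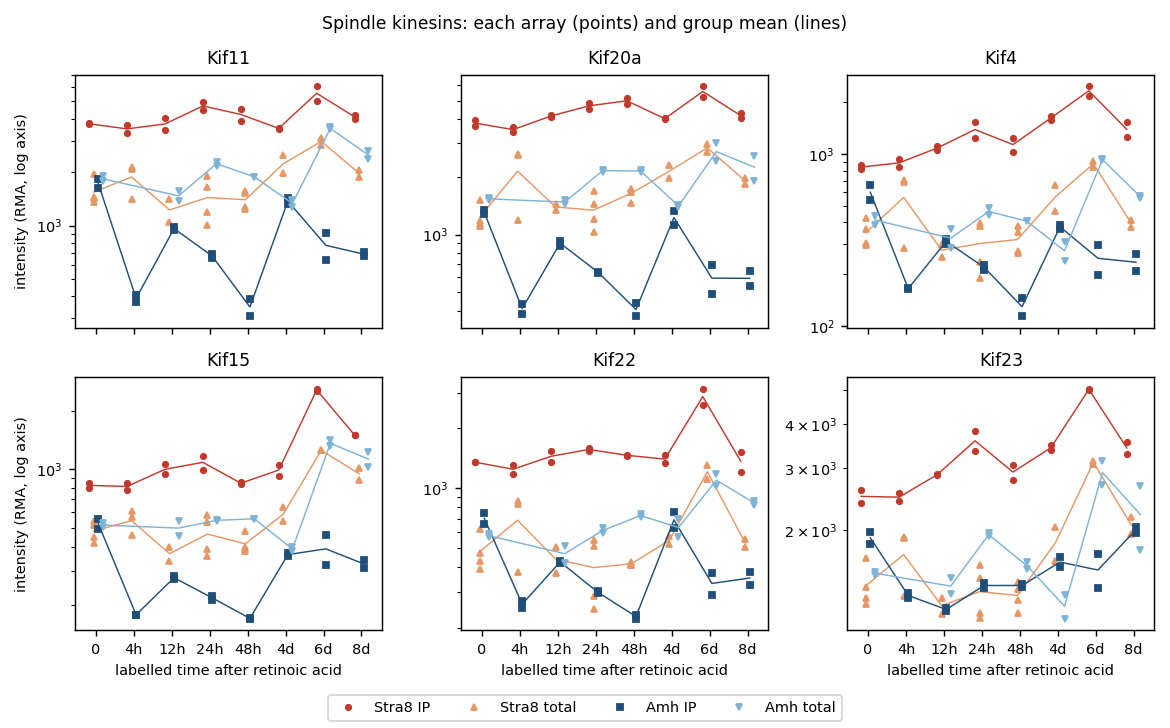
RMA intensity (log axis) of 6 spindle kinesins against labelled time, with each array as a point and the group mean as a line, for IP and total RNA of the Stra8 and Amh lines. Amh IP starts near the total RNA values at time 0 and is lowest in the arrays labelled 4h and 48h for Kif11, Kif20a, Kif4, Kif15 and Kif22, while Stra8 IP is the highest series at each time and peaks at 6d in all 6 genes.

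Against time 0, 10 of 11 spindle kinesins were lower in Amh IP over the course (F test in limma), with 3.96% of all genes lower, and no kinesin outside the group was lower; 1, Kif9, was higher (3.67%). At 48h 10 were lower and 0 higher, when 1.00% of all genes were lower and 0.221% higher. Outside the group, Kif2a had a mean intensity of 1954 at time 0 and 1715 at 48h, and Kif2b of 119 and 124. Kif11 was lower by 2.32 ± 0.19 on the log2 scale, that is 5-fold (limma adjusted p = 2.35e-13, 2 arrays against 2), Kif4 differed by -2.21, Kif18b by -2.01, Kif2c by -1.84, Kif20a by -1.69, Kif22 by -1.63, Kif15 by -1.62, Kif18a by -1.44, Kif14 by -1.23 and Kif20b by -1.13. Kif23 stood at -0.45 ± 0.15 and was not called; its largest difference was -0.67 at 12h, and at 8d it was at 1961 and 2040, as at time 0 (1971 and 1828). The median of the group was -0.84 at 12h, -1.15 at 24h, -1.63 at 48h, -1.09 at 6d and -1.15 at 8d, with -1.57 in the arrays labelled 4h and -0.36 in those labelled 4d. Kif20b lost its call over the course without either time 0 array. With the arrays labelled 4h and 4d left out, 11 kinesins were called over the course and 10 at 48h. All the later differences use the same 2 arrays of time 0.

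At 6d 6 spindle kinesins were lower in Amh IP than at time 0 (2.14% of all genes) and 0 higher (1.26%): Kif4 (-1.30), Kif18b (-1.23), Kif11 (-1.18), Kif2c (-1.17), Kif20a (-1.17) and Kif22 (-1.09). The replicates of this time stood apart, with Kif11 at 643 and 905 and the mean log2 of the 11 spindle genes at 8.49 and 8.98. Without replicate 1 only 1 kinesin was called, without replicate 2 there were 8, and after quantile normalization 3. At 8d the lower genes were Kif18b (-1.65 ± 0.17, limma adjusted p = 7.22e-11), Kif4 (-1.35), Kif11 (-1.33), Kif2c (-1.24), Kif14 (-1.17) and Kif20a (-1.15), and Kif9 was the 1 higher kinesin, with 2.69% of all genes lower and 2.93% higher.

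The mean log2 of the 7 germ cell markers in Amh IP was 8.73 and 8.92 at time 0, 8.23 and 8.56 at 48h and 9.56 and 9.35 at 8d, and that of the 9 Sertoli cell markers 12.48 and 12.46 at time 0 and 12.62 and 12.60 at 48h. The 4 endothelial markers stood at 9.11 and 9.03 at time 0 and at 8.51 and 8.49 at 48h, where 1 of them, Kdr, was lower (-1.04), the 4 measured Leydig markers at 9.09 and 8.59 and then 8.53 and 8.76, the 4 myoid markers at 9.07 and 9.09 and then 9.07 and 9.16, and the 5 macrophage markers at 7.44 and 7.34 and then 7.57 and 7.59. Their part in the kinesin differences was not tested. Partners of the spindle kinesins were 20 listed genes, 19 of them measured, among them kinetochore proteins, mitotic kinases and midzone proteins. Of these 19, 14 were lower at 48h (1.00% of all genes), with a median of -1.42. They include the mitotic kinase Plk1 (-2.71), the proliferation marker Mki67 (-2.37), the midzone protein Prc1 (-2.32) and Top2a (-2.19). The 20 dynein and dynactin subunits had a median of 0.06, the 20 intraflagellar transport genes -0.03 and the 9 kinesin light chains and adaptors -0.04, against 0.03 over all genes.

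Within the Amh line, IP minus total RNA was followed in the same way. The median of the 11 spindle kinesins was 0.02 at time 0, -0.61 at 12h, -1.33 at 24h, -1.71 at 48h, -0.01 in the arrays labelled 4d, -1.93 at 6d and -1.67 at 8d. The 6d value includes an Amh total array with low Leydig markers, described below. The change of IP minus total from time 0 was called for all 11 and for no other kinesin (2.87% of all genes lower and 1.31% higher, F test in limma). It was largest for Kif4 at 6d (-2.47 ± 0.37, limma adjusted p = 1.78e-07), Kif11 at 48h (-2.36 ± 0.26, limma adjusted p = 6.63e-12) and Kif2c at 48h (-2.34). For Kif4 at 6d, IP RNA differed from time 0 by -1.30 and total RNA by 1.17. For Kif11 at 48h these values were -2.32 and 0.035. Kif20b (-1.39, limma adjusted p = 0.035) was the weakest and was lost without the arrays labelled 4h and 4d (limma adjusted p = 0.0546) and when any of 10 single arrays was left out. Kif5c changed by 0.68 ± 0.32 and was not called.

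**Figure D4:**
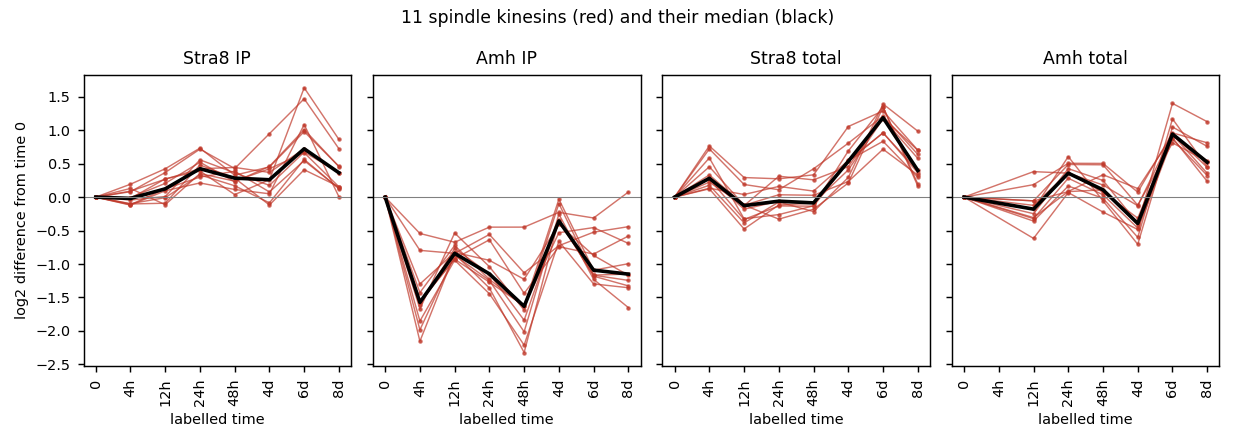
Log2 difference from time 0 of the 11 spindle kinesins (red lines, 1 per gene) and their median (black) by labelled time, in IP and total RNA of the Stra8 and Amh lines; Amh total RNA has no point at 4h. The Amh IP median falls to -1.63 at 48h, while the medians of Stra8 IP, Stra8 total and Amh total RNA are highest at 6d.

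Germ cells took another course. In Stra8 IP 5 kinesins were higher and 1 lower over the 8 labelled times (6.80% and 4.01% of all genes). Kif15 stood out at 6d: it was at 803 and 853 at time 0, between 782 and 1178 up to 4d, at 2526 and 2613 at 6d, and at 1501 and 1506 at 8d. The 6d arrays lay above every other Stra8 IP array, and the difference from time 0 was 1.63 ± 0.15, or 3.10-fold (limma adjusted p = 4.07e-12). Kif4 rose by 1.47 ± 0.26, Kif22 by 1.09 ± 0.24 and Kif23 by 1.01 ± 0.15 at 6d, when 3.71% of all genes were higher and 2.27% lower. Quantile normalization left Kif15 and Kif4 called, with Kif22 at 0.95 and Kif23 at 0.99, and the replicate block took Kif23 to just under 2-fold. The other 7 spindle kinesins ran from 0.41 to 0.98 at 6d, among them Kif11 (0.56, limma adjusted p = 0.015) and Kif20a (0.55). All 11 had positive differences, with a group median of 0.72. At 24h all 11 were positive too, with a median of 0.42, and Kif18b had its highest mean there (0.48, against 0.41 at 6d).

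The earlier times moved less. At 4h limma called 0 kinesins in Stra8 IP, where 0.241% of all genes were called, and 0 were under an unadjusted p of 0.05. In Ngn3 IP at 4h limma also called 0 (0.311% of all genes), and 3 were under an unadjusted p of 0.05. Kif11 differed by -0.10 ± 0.19 and -0.20 ± 0.19 in the 2 lines, Kif20a by -0.11 and -0.14, and Kif5c by 0.02 and -0.24. At 4d limma called 0 in Stra8 IP (1.95% of all genes), with 12 under an unadjusted p of 0.05, Kif20a at 0.08 and Kif11 at -0.09; 1 was called after quantile normalization and 1 when any of 3 single arrays was left out. Without the 2-fold minimum 9 kinesins were called in Stra8 IP at 4d. The 4d array with raised Sertoli cell markers was replicate 1, with a mean log2 of 11 against 9.99 in replicate 2. It also had the highest Stra8 IP values of Kif1a (845), Kif21a (896) and Kif5b (2830), the kinesins that were high in Amh IP. Markers of other somatic cells were raised on it as well: macrophage markers stood at 9.01 against 7.75 in replicate 2, myoid markers at 10.09 against 9.13, Leydig markers at 9.45 against 8.43 and endothelial markers at 9.44 against 8.73. Their part was not tested. At 6d, where the median of the spindle kinesins was highest, the Sertoli cell markers stood at 8.81 and 9.13, below both arrays of time 0 (9.61 and 10.23), and their part was not tested.

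The courses of germ and Sertoli cells differed for all 11 spindle kinesins in the test of line by time in IP RNA, although Kif20b lost its call when any of 5 single arrays was left out (either time 0 array of each line, or Stra8 IP replicate 2 at 48h). Of all genes, 10.9% were higher and 7.77% lower in that test, against 14 and 4 of the kinesins. Kif4 led (2.77 ± 0.37 at 6d, limma adjusted p = 2.59e-07), followed by Kif11 (2.49 ± 0.26 at 48h, limma adjusted p = 2.01e-11), Kif18b (2.30), Kif2c (2.28), Kif22 (2.18), Kif15 (2.09) and Kif20a (2.08). Kif1b, Kif24 and Kif16b were also higher, by 1.10, 1.03 and 1.01, and quantile normalization took all 3 under 2-fold. Kif3c, Kif5a, Kif6 and Kif19a were lower, each by between 1.12 and 1.16 at 8d. Kif5c differed by -0.91 at 4h (limma adjusted p = 0.0528).

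Stra8 IP against Stra8 total RNA over time gave 0 kinesins in limma (5.52% of all genes were called), with 26 under an unadjusted p of 0.05. Without the 2-fold minimum 20 were called. The median of IP minus total for the 11 spindle kinesins stayed between 0.94 and 1.83 over the 8 labelled times. The highest was at 24h, where the total arrays split. Their mean log2 over the spindle genes was 9.63 and 9.75 in replicates 1 and 2, and 9.05 and 8.95 in replicates 3 and 4. Those last 2 have the narrow signal range named below. The lowest was in the arrays labelled 4h. Kif20a changed most in the arrays labelled 4h (-0.83), Kif11 in those labelled 4d (-0.62) and Kif5c in those labelled 4d (-0.89). Without Stra8 total replicate 1 labelled 4h, or without the 3 arrays of narrowest signal range, of which it is one, 2 kinesins were called, and leaving out any of 7 other arrays gave 1. In total RNA itself, replicates 2 and 3 labelled 4h had Kif20a at 2587 and 2645 and replicate 1 had it at 1192, where time 0 spanned 1102 to 1507.

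In total RNA, both lines showed spindle kinesins at their highest at 6d. In Stra8 total RNA 9 kinesins were higher over the course and 0 lower (4.90% and 2.00% of all genes), 7 of them spindle genes with their peak at 6d: Kif15 (1.39 ± 0.13, limma adjusted p = 1.01e-14), Kif4 and Kif22 (both 1.35), Kif2c (1.29), Kif20a (1.21), Kif18a (1.19) and Kif23 (1.17). In Amh total RNA 6 were higher and 0 lower (4.46% and 3.20%), among them Kif15 (1.40), Kif4 (1.17) and Kif18a (1.05) at 6d. That count was 10 after median centring or quantile normalization and 11 without Amh total replicate 1 labelled 6d. On that array Leydig markers stood at 8.78, against 10.30 in replicate 2 and 10.98 and 10.41 at time 0. Macrophage markers stood at 8.42 against 9.33 in replicate 2, endothelial markers at 9.25 against 9.65 and myoid markers at 10.36 against 10.67. Sertoli cell markers were alike at 11.64 and 11.66. The part of these cells was not tested. Kif11 stayed just under 2-fold in both (0.96 and 0.94), as did Kif20a in Amh total RNA (0.81). The mean log2 of the germ cell markers in Stra8 total RNA was 11.33 and 11.34 at 6d, against 10.48 to 10.80 at time 0, and their part in these differences was not tested.

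Kif9, a kinesin of the sperm flagellum, had the largest increase of any kinesin in each of the 4 courses. In Stra8 IP it was at 393 and 335 at time 0, between 329 and 414 up to 4d, at 530 and 663 at 6d and at 1345 and 1046 at 8d. The difference at 8d was 1.71 ± 0.15 (limma adjusted p = 5.21e-13), when 4.38% of all genes were higher and 3.01% lower. Amh IP went from 199 and 189 at time 0 to 586 and 838 at 8d (1.85 ± 0.15, limma adjusted p = 6.79e-14), with no array of another time above 275. In total RNA the 8d arrays had 994 and 610 in the Stra8 line (2.04 ± 0.13) and 917 and 868 in the Amh line (2.24 ± 0.15), against 179 to 209 at time 0. At 8d in Amh IP the germ cell marker Sycp3 was higher too, by 2.36 ± 0.24 (limma adjusted p = 1.73e-11), beside the germ cell marker means given above; their part in the Kif9 rise was not tested.

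Other flagellar and ciliary kinesins followed Kif9 only in part. Over the course, with the largest difference at 8d, Kif27 was higher in Stra8 total (1.05) and Amh total RNA (1.16), and Kif24 in Amh total RNA (1.08). The Kif27 value in Stra8 total RNA fell under 2-fold after median centring or quantile normalization. Of 20 intraflagellar transport genes, limma called 3 higher in Stra8 IP at 8d (4.38% of all genes) and 1, Wdr19 (1.14), in Amh IP (2.93%).

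Kif3c, a kinesin-2 chain of neurons, was the only kinesin lower over the Stra8 IP course. It was at 638 and 672 at time 0, 353 and 321 at 4d, and 324 and 306 at 8d (-1.05 ± 0.12, limma adjusted p = 2.18e-10). In Amh IP it stayed between 323 and 490. Kif5c in Stra8 IP went from 1067 and 917 at time 0 to 530 and 463 at 8d, a difference of -1.00 ± 0.22 (limma adjusted p = 0.000292) that fell just under the 2-fold minimum. In Amh IP Kif5c was highest in the arrays labelled 4h (1490 and 1489, against 734 and 837 at time 0; 0.93 ± 0.22, not called), its 6d replicates were at 1266 and 577, and at 8d it was at 539 and 438. It also differed by less than 2-fold at 8d in Stra8 total (-0.76) and Amh total RNA (-0.83).

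**Figure D5:**
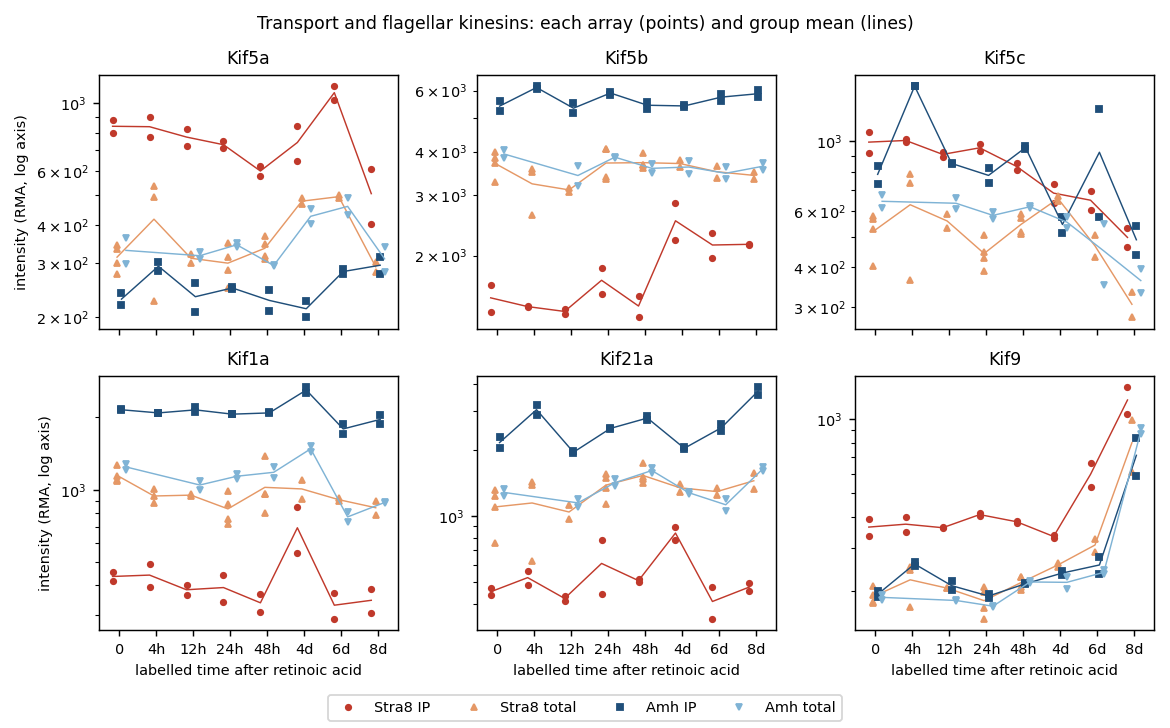
RMA intensity (log axis) of the 3 conventional kinesin heavy chains Kif5a, Kif5b and Kif5c and of Kif1a, Kif21a and Kif9 against labelled time, with each array as a point and the group mean as a line. Kif5b, Kif1a and Kif21a are highest in Amh IP and lowest in Stra8 IP, Kif5a is higher in Stra8 IP than in Amh IP, the series of Kif5c cross, and Kif9 climbs at 8d in all 4 series.

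Across the comparisons of lines and fractions the related lists gave the following counts. Partners of the spindle kinesins were higher for 16 of 19 in Stra8 IP against Amh IP (median 2.00), with 7.54% of all genes higher. Against total RNA they were higher for 13 in Stra8 IP (3.84% of all genes) and 7 in Ngn3 IP (6.18%), and lower for 10 in Amh IP (3.94%). Kinesins outside the symbol rule (4 of 6 measured) included the centromere motor Cenpe, which was higher in Stra8 IP than in Amh IP (2.21), lower in Amh IP than in total RNA (-1.08) and higher in Ngn3 IP (1.14). In Stra8 IP against Amh IP, 2 of 9 light chains and adaptors were lower (median 0.13), and 3 of 20 dynein and dynactin subunits (median -0.08). Of all genes 9.26% were lower there.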

How the data were processed

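The authors' deposited values are intensity per probe set from a 1-colour Affymetrix gene array, on a linear scale and normalized by RMA per the submitters' processing notes, with no settings stated. Of 28853 probe sets, 21789 were listed with 1 gene; those with several genes (1621) or none listed were left out. The platform annotation gave the gene names. Each gene was represented by its probe set of highest mean over the arrays (5 of 37 kinesins had 2 to choose from), leaving 19938 genes. Array medians lay between 252.6 and 300.5. No counts lie behind an array, and the number of arrays limits the precision.

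Log2 values were fitted with limma 3.58.1 in R 4.3.3 (data.table, version 1.17.8) with 1 mean for each of 35 groups over all 77 arrays, empirical Bayes moderation and an intensity trend. The 20 comparisons comprised differences of group means, averaged over shared times for lines and fractions, and moderated F tests for courses, whose printed value is the largest difference. Tests were two-sided, and p-values were adjusted by Benjamini-Hochberg over all genes. The fit was also run on simulated data with independent noise and no replicate pairing, so that run cannot speak to paired arrays, and no result above rests on it. Figures were drawn with matplotlib 3.10.9.

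Called kinesins were named, up to 20 in a comparison, with Kif11, Kif20a and Kif5c in any; up to 4 called genes of another list were named. Members, roles, lists and alternatives were chosen with earlier results of these data known. The lists were the 4 kinesin roles, light chains and adaptors, other kinesins, spindle partners, dynein and dynactin, intraflagellar transport, and markers of germ, Sertoli, Leydig, peritubular myoid, macrophage and endothelial cells. Leydig markers (4 of 5) had a mean log2 of 7.95 to 9.45 in the Stra8 and Amh IP arrays, myoid markers (4) 8.76 to 10.09, macrophage markers (5) 7.29 to 9.01 and endothelial markers (4) 8.17 to 9.46.

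Replicate numbers were compared by the correlation of residuals between IP and total RNA. It passed 0.1 in 7 of 7 Amh pairs (0.114 to 0.585), 2 of 2 Ngn3 pairs and 4 of 8 Stra8 pairs (-0.21 to 0.24). The blocked fit used duplicateCorrelation (consensus 0.138). Other alternatives were quantile normalization, centring on array medians, averaged probe sets, no fold minimum, dropping the dimmest 30% of genes, the compared groups alone, each array left out, and fits without the arrays in doubt.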

Additional observations from a re-analysis of the deposited data

Results flagged for a closer look

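Dixon's test was run on the 111 sets of 4 arrays of 1 group that the kinesins gave, and 3 had an array far from the others; chance gives about 1 in 20. Kif17, a kinesin of cilia and sperm, was at 189 in Stra8 total RNA at time 0, replicate 4, with the others between 235 and 241. Kif1c, a Golgi and vesicle motor, was at 361 in replicate 2 of that group (the others at up to 393), and Kif3b at 766 in Stra8 total RNA at 48h, replicate 4 (others 818 to 819).

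A second set of results differed between groups by a test of the difference itself, an F test over all times. The time named is that of a gene's largest difference and was not tested on its own. In Stra8 minus Amh IP RNA, the change from time 0 was largest at 48h for Kif11 (2.49), Kif18a (1.80), Kif18b (2.30), Kif20a (2.08), Kif20b (1.37) and Kif2c (2.28). It was largest at 6d for Kif4 (2.77), Kif14 (1.85), Kif15 (2.09), Kif22 (2.18), Kif23 (1.32), Kif16b (1.01) and Kif1b (1.10), and at 12h for Kif24 (1.03). It was largest at 8d, and negative, for Kif3c (-1.12), Kif5a (-1.13), Kif6 (-1.16) and Kif19a (-1.16). In the Amh line, the change of IP minus total RNA from time 0 was largest at 48h for Kif11 (-2.36), Kif18b (-2.26), Kif20a (-2.17) and Kif2c (-2.34). It was largest at 6d for Kif14 (-1.81), Kif15 (-1.86), Kif18a (-1.90), Kif20b (-1.39), Kif22 (-2.01), Kif23 (-1.26) and Kif4 (-2.47).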

How the results depend on the processing

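Without the 2-fold minimum the count of kinesins called rose to 37 in Stra8 IP against total RNA, 33 in Amh IP against total, 30 in Ngn3 IP against total and 4 in Stra8 total against Amh total. For the courses it rose to 26 in Stra8 IP, 28 in Amh IP, 32 in Stra8 total, 29 in Amh total, 30 in Stra8 minus Amh IP and 20 in Stra8 IP minus total. For single times it rose to 9, 22 and 18 in Stra8 IP at 4d, 6d and 8d, and to 14 and 20 in Amh IP at 6d and 8d. The Amh total course gave 10 after median centring and 10 after quantile normalization. Quantile normalization also gave 1 in Stra8 IP at 4d, 2 in Stra8 IP at 6d and 3 in Amh IP at 6d. Without the 3 arrays of narrowest range the Stra8 IP minus total course gave 2.

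With each array left out in turn the counts ranged from 0 to 2 for the Stra8 IP minus total course, 0 to 1 for Stra8 IP at 4d, 5 to 11 for the Amh total course and 1 to 8 for Amh IP at 6d; in the other 16 comparisons they stayed within 1.5 times the count given above. The replicate block gave 10 at 48h and 11 over the course in Amh IP, and changed no call but that of Kif23 in Stra8 IP (0.999, at 6d and over the course). Of 150 differences of single kinesins, 144 kept their call after median centring, 137 after quantile normalization, 143 with averaged probe sets (the 7 lost are all of Kif14) and 149 when the Amh arrays of doubtful time were left out; none changed sign in any alternative run. Where leaving out an array left 1 in a group, that array was assumed to vary like the other groups. With 2 arrays in most groups, the number of arrays limits the precision.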
